A study of Mus musculus with 40 samples.

Results

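A set of 8 genes that microglia raise around amyloid plaques was followed across 40 mouse cortices, namely *Gpnmb*, *Clec7a*, *Cst7*, *Spp1*, *Lyz2*, *Igf1*, *Cd52* and *Capg*. They were taken by name from a count table of 43346 genes. The 8 genes filled 9 rows of that table, because *Clec7a* has 2 overlapping gene records, and all 9 rows passed the filter on low counts that 21253 genes passed.

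Microglia that touch plaques in amyloid mice leave their resting programme and turn on genes for binding, engulfing and digesting material, a state often called disease-associated microglia (DAM). The receptor TREM2 on the microglial surface, with its adaptor TYROBP, is needed for the full form of that state. The 8 genes stand at different points of it, from secreted ligands (*Spp1*, *Igf1*), a secreted lysozyme (*Lyz2*) and surface proteins (*Gpnmb*, *Clec7a*, *Cd52*) to a lysosomal protease inhibitor (*Cst7*) and an actin regulator (*Capg*).

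Poly-A RNA of the cortex was sequenced from 10 mice in each of 4 groups, with 5 females and 5 males in each. The non-amyloid cohort held WT mice and mice homozygous (Hom) for the *Trem2* H157Y knock-in allele at 6 months of age, and the amyloid cohort held the same *Trem2* genotypes at 8.5 months on the 5xFAD background. 5xFAD mice carry mutant human transgenes, among them APP, under the neuronal *Thy1* promoter, and those used here were hemizygous for them. Age and transgenes differed together between the cohorts, so that their parts cannot be told apart. Total counts per library ranged from 41646271 to 105903846, with group medians of 73990977 in non-amyloid WT, 83819286.5 in non-amyloid Hom, 78134526.5 in amyloid WT and 70298502.5 in amyloid Hom mice. Levels are given as CPM, counts set to a common library size with edgeR's factors from the trimmed mean of M-values (TMM). Mice are named by replicate numbers, which run from 1 to 40 over the 4 groups.

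The libraries matched their tissue and cohort labels in the genes examined, and 3 libraries stood apart from the rest in the measures below. The cortical neuron genes *Slc17a7*, *Tbr1* and *Cux2* were present in all groups, and *Slc17a7* averaged 793 ± 109, 860 ± 66.2, 875 ± 204 and 740 ± 116 CPM (SD, n = 10 each) in non-amyloid WT, non-amyloid Hom, amyloid WT and amyloid Hom mice. *Thy1*, whose promoter drives the transgenes, averaged 627 ± 79.9, 634 ± 71.6, 1956 ± 370 and 1574 ± 251 CPM (SD, n = 10 each) in the same order. *Trem2*, the targeted gene, averaged 10.7 ± 2.13, 10.4 ± 1.59, 62.1 ± 24.4 and 33.9 ± 10.3 CPM (SD, n = 10 each). Gene counts do not read the knock-in allele itself, so they check nothing about it.

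The first of these was amyloid Hom replicate 19, a female with the lowest total. In that library, 0.617% of counts (95% Wilson confidence interval 0.615% to 0.619%) lay on 569 genes that were mostly covered by a more abundant gene on the opposite strand. In the other 39 libraries this share ran from 0.0144% to 0.0191%. The second was amyloid Hom replicate 3, labelled female, in which 4 Y-linked genes summed to 7.56 CPM, or 3.48% of the male mean of 217 CPM. The other 19 females reached at most 0.489 CPM, and males ran from 183 to 256 CPM. The last was non-amyloid WT replicate 24, a female in which markers of monocytes and neutrophils summed to 24.1 CPM. The other 9 mice of its group ran from 0.943 to 1.995 CPM, and the other 39 libraries reached at most 3.42 CPM. Counts of members called are also given without replicates 19 and 3 in comparisons that hold amyloid Hom mice, as are counts of correlated pairs and, for genotype in the amyloid cohort, of other genes called. Values of single genes, summed markers and likeness include all libraries unless stated. The interval covers counting error only.

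The question of the first comparison was how the cohorts differed. All 8 genes were higher in amyloid than in non-amyloid cortex, in both genotypes, from 476-fold for the cathepsin inhibitor *Cst7* to 1.59-fold for the growth factor *Igf1* in WT mice. The members were picked as plaque-associated genes, so that their direction here describes the choice. Genes were tested by the quasi-likelihood method of edgeR, with p adjusted over all genes tested by the procedure of Benjamini and Hochberg. A gene was called where the adjusted p lay under 0.05 and its log2 fold change was beyond 0.25 in either direction. In WT mice 9 of 9 rows were called higher, as were 6.62% of all genes tested, and in Hom mice 9 of 9 rows, against 5.71% of all genes. Both counts were 9 under every alternative tried, including the fits without replicate 19, 3 or 24, while the genes called in either direction ran from 1571 to 2016 in WT and from 964 to 2070 in Hom mice. In bulk cortex, a difference in the number of cells of a type and a difference in RNA per cell cannot be told apart, whether the level is higher or lower.

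*Cst7* encodes cystatin F, which restrains lysosomal cysteine proteases such as cathepsin C. Its CPM ran from 0.0435 through a median of 0.127 to 0.309 in non-amyloid WT mice, and from 28.6 through 66.5 to 131 in amyloid WT mice. In Hom mice it ran from 0.0320 through 0.105 to 0.208 without amyloid and from 12.5 through 26.02 to 47.7 with amyloid. Every amyloid mouse therefore stood above every non-amyloid mouse, and the non-amyloid levels rested on few counts, as low as 2 in a library. The log2 fold change was 8.90 (SE 0.36, adjusted p 7.98e-22) in WT mice and 8.01 (SE 0.36, adjusted p 4.64e-20) in Hom mice by edgeR.

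*Clec7a* encodes dectin-1, a C-type lectin receptor for beta-glucans that signals through SYK and CARD9. Its more abundant row had medians of 0.482 and 30.6 CPM in non-amyloid and amyloid WT mice and of 0.422 and 15.9 CPM in the Hom groups, with no overlap between cohorts. Its log2 fold change was 5.94 (SE 0.30) in WT and 5.33 (SE 0.29) in Hom mice. The other row gave 5.69 (SE 0.31) and 5.47 (SE 0.32). *Gpnmb*, a transmembrane glycoprotein of lysosomes and phagosomes, rose by 3.39 (SE 0.31) in WT and by 2.21 (SE 0.30) in Hom mice on the log2 scale. *Cd52*, a short glycopeptide held to the membrane by a lipid anchor, rose by 3.02 (SE 0.20) and 2.13 (SE 0.20).

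Without amyloid, *Gpnmb* ran from 0.839 through a median of 2.27 to 2.80 CPM in WT and from 0.670 through 1.26 to 2.91 CPM in Hom mice. Without amyloid, *Cd52* ran from 0.968 through 1.30 to 1.84 CPM in WT and from 1.04 through 1.35 to 1.60 CPM in Hom mice. For both genes, every amyloid mouse stood above every non-amyloid mouse of its genotype.

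*Lyz2*, the lysozyme of myeloid cells, rose by 2.99 (SE 0.17) in WT and 2.34 (SE 0.17) in Hom mice on the log2 scale. *Capg*, which caps actin filaments, rose by 2.51 (SE 0.20) and 1.89 (SE 0.20). *Spp1*, which encodes the secreted integrin and CD44 ligand osteopontin, rose by 1.77 (SE 0.21) in WT and 0.82 (SE 0.21, adjusted p 0.00890 by edgeR) in Hom mice. For *Spp1*, 9 of 10 amyloid WT mice stood above every non-amyloid WT mouse.

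*Igf1*, the insulin-like growth factor, had the smallest cohort difference. Its CPM ran from 10.1 through a median of 14.5 to 17.2 in non-amyloid WT mice and from 14.8 through 22.4 to 28.4 in amyloid WT mice. The groups overlapped, with 8 of 10 amyloid WT mice above every non-amyloid WT mouse and 7 of 10 amyloid Hom mice above every non-amyloid Hom mouse. The log2 fold change was 0.67 (SE 0.11, adjusted p 2.64e-05) in WT and 0.44 (SE 0.11, adjusted p 0.0102) in Hom mice by edgeR.

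Markers of other cells also differed between the cohorts. In WT mice, where 6.62% of all genes were called higher, amyloid cortex had called increases in 3 of 9 astrocyte markers, among them the filament gene *Gfap* at a log2 fold change of 3.16 (SE 0.20), and in 4 of 8 tested markers of T, B and NK cells, among them the T cell gene *Cd8a* at 2.96 (SE 0.55). In that list *Cd4* was called lower at −0.72 (SE 0.19). Of 10 border-associated macrophage markers 2 rose, with *Folr2* at 1.66 (SE 0.33). Of 12 neuronal markers 1 fell, *Pvalb* at −0.46 (SE 0.10), and of 7 tested monocyte and neutrophil markers 1 was called lower, *Ngp* at −3.01 (SE 0.92). Without non-amyloid WT replicate 24, *Ngp* had 0.28 (SE 0.73, adjusted p 0.891 by edgeR) and 0 of these markers were called, with 1 at an unadjusted p under 0.05. Oligodendrocyte and endothelial or mural markers had 1 called increase of 8 each, the latter 0 without replicate 24, and 0 of 9 leptomeningeal and choroid plexus and 0 of 5 erythroid markers were called by edgeR, with 1 and 0 at an unadjusted p under 0.05. In Hom mice, where 5.71% of all genes were called higher, 2 of 9 astrocyte markers were called higher, with *Gfap* at 2.35 (SE 0.19), and 3 of 8 markers of T, B and NK cells, with *Cd8a* at 2.49 (SE 0.55), while *Cd4* was called lower at −0.63 (SE 0.19). Single increases were called for *Folr2* of the 10 border-associated macrophage markers (1.25, SE 0.34), *Mobp* of the 8 oligodendrocyte markers (0.29, SE 0.09) and *Igf2* of the 9 leptomeningeal and choroid plexus markers (0.42, SE 0.13), and *Cux2* was lower among the 12 neuronal markers (−0.33, SE 0.10). The calls of *Cd4*, *Cux2* and *Igf2* were lost without replicate 19 and those of *Folr2* and *Cux2* without replicate 3. Monocyte and neutrophil, endothelial or mural and erythroid markers had 0 calls by edgeR in Hom mice, with 0, 1 and 0 at an unadjusted p under 0.05. Summed astrocyte markers averaged 5210.5 ± 479, 5124 ± 252, 6604 ± 476 and 6229 ± 543 CPM (SD, n = 10 each) in non-amyloid WT, non-amyloid Hom, amyloid WT and amyloid Hom mice. Leptomeningeal and choroid plexus markers summed to medians of 105, 98.99, 113 and 128 CPM in the same order, with highest mice at 299.97, 537, 476 and 772 CPM. *Thy1* was higher by 1.64 (SE 0.10) in WT and 1.31 (SE 0.10) in Hom mice on the log2 scale. The part of these cells in the rise of the members was not tested.

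Per kilobase of gene length, the order of the members changed with the cohort. In amyloid WT mice *Cst7* and *Lyz2* were the most abundant, at 72.8 ± 31.8 and 63.8 ± 20.2 CPM per kb (SD, n = 10), which did not differ beyond their spread, taken as the larger of both SDs. *Spp1* followed at 34.3 ± 21.9, then the *Clec7a* rows at 14.3 ± 5.90 and 13.4 ± 5.35, *Cd52* at 9.20 ± 3.46 and *Gpnmb* at 5.53 ± 3.51. *Capg* and *Igf1* closed the order at 2.41 ± 0.894 and 2.24 ± 0.423 CPM per kb, again within their spread. Of the neighbours in this order, *Spp1* lay below *Lyz2* and *Gpnmb* below *Cd52* by more than that spread, and the others did not. In non-amyloid WT mice *Spp1* at 10.1 ± 2.27 and *Lyz2* at 8.05 ± 1.70 CPM per kb had the highest means and did not differ beyond their spread. *Cst7* had the lowest mean at 0.1498 ± 0.0983 (SD, n = 10), within the spread of the *Clec7a* row above it.

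**Figure D1:**
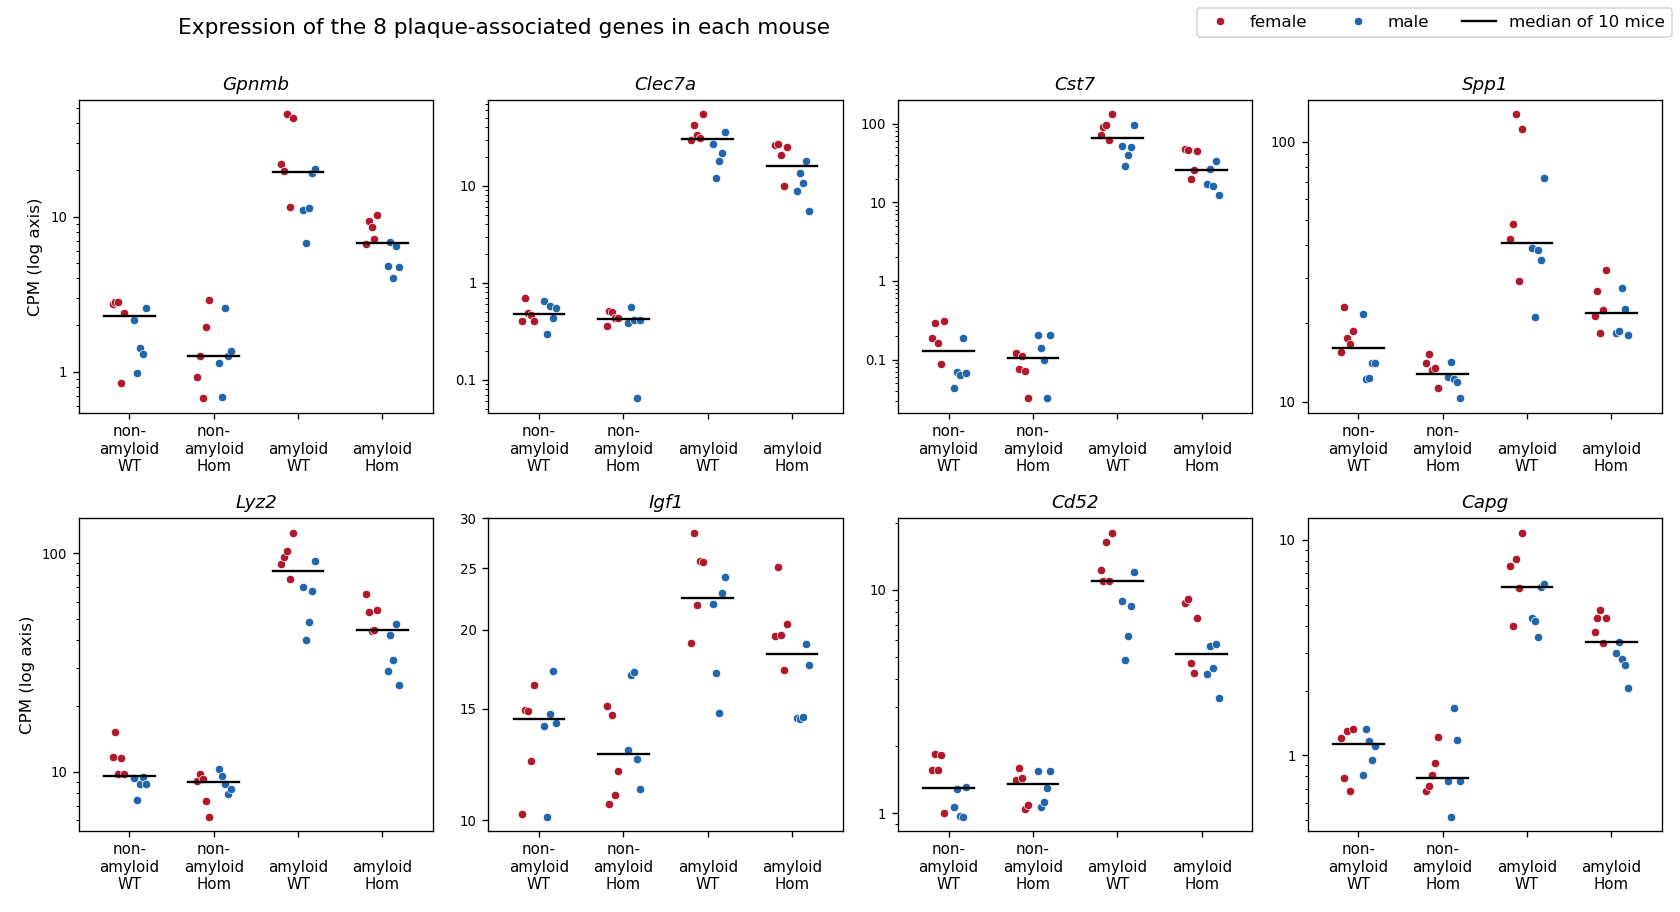
CPM on a log axis of the 8 genes in each of 40 mice, 10 per group, with females in red, males in blue and the group median as a black line (*Clec7a* is its more abundant row). For *Cst7*, the amyloid WT mice sit between 28.6 and 131 CPM and the amyloid Hom mice between 12.5 and 47.7 CPM, all above the non-amyloid mice.

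The second comparison asked how these genes differed with *Trem2* H157Y in the presence of amyloid. All 9 rows were lower in amyloid Hom than in amyloid WT cortex. The fall passed the test for *Gpnmb*, which in Hom mice had 32.8% of its WT mean, and *Cst7* and *Spp1* had about 40% of theirs without passing it. *Igf1* kept 82.2% of its WT mean. Thus 1 of 9 rows was called lower, against 0.0518% of all genes tested (11 genes lower and 5 higher of 21253), and at an unadjusted p under 0.05 the counts were 9 of 9 rows and 2056 of all genes. These 2056 of 21253 genes also stand beside the counts at that p for the gene and marker lists of this comparison below.

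*Gpnmb* ran from 6.71 CPM in replicate 13 through a median of 19.3 to 45.6 in replicate 12 among amyloid WT mice. Among amyloid Hom mice it ran from 4.03 in replicate 30 through 6.73 to 10.3 in replicate 34. The WT group was wide, with replicates 12 and 32 far above the rest, while the Hom group was narrow. The lowest WT mouse stood above 5 of the 10 Hom mice, and the highest Hom mouse stood below 9 of the 10 WT mice. Its log2 fold change was −1.61 (SE 0.29, adjusted p 0.0330 by edgeR). Over the 11 other settings the adjusted p ran from 0.000240 to 0.124, and over 20 fits that left out 1 library each it ran from 0.00911 to 0.0965. The log2 fold change ran from −1.619 to −1.255 over those settings and from −1.714 to −1.407 over the 20 fits. The call was lost with limma-voom (adjusted p 0.124) and in 10 of the 20 fits, with adjusted p of 0.0573, 0.0582, 0.0610 and 0.0678 without WT replicates 5, 12, 32 and 36 in turn, and of 0.0730, 0.0599, 0.0818, 0.0672, 0.0772 and 0.0965 without Hom replicates 10, 25, 30, 33, 39 and 40 in turn.

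*Spp1* ran from 21.2 CPM in replicate 13 through a median of 40.6 to 127 in replicate 12 among amyloid WT mice, and from 18.1 in replicate 40 through 21.9 to 32.2 in replicate 34 among amyloid Hom mice. WT replicates 12 and 32 again stood highest, and 8 WT mice lay above every Hom mouse. Its log2 fold change was −1.32 (SE 0.26, adjusted p 0.0525 by edgeR). *Cst7* ran from 28.6 CPM in replicate 13 to 131 in replicate 32 among WT mice, and from 12.5 in replicate 40 to 47.7 in replicate 3 among Hom mice. The groups overlapped, although 6 Hom mice lay below every WT mouse, and the log2 fold change was −1.31 (SE 0.27, adjusted p 0.0554 by edgeR). Over the 11 other settings the adjusted p ran from 0.000454 to 0.205 for *Spp1* and from 0.00124 to 0.126 for *Cst7*. With sex as a covariate, where 1.14% of all genes were called lower, both were called, with adjusted p of 0.0107 for *Spp1* and 0.00535 for *Cst7*.

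*Cd52*, *Clec7a*, *Lyz2* and *Capg* formed a middle group of differences. Their log2 fold changes were −0.92 (SE 0.22) for *Cd52*, −0.88 (SE 0.28) and −0.91 (SE 0.27) for the *Clec7a* rows, −0.88 (SE 0.19) for *Lyz2* and −0.83 (SE 0.19) for *Capg*. None of these passed the test, with adjusted p from 0.0554 for *Lyz2* to 0.174 for the more abundant *Clec7a* row by edgeR. With sex as a covariate all 5 of these rows were called, with adjusted p from 0.00371 for *Lyz2* to 0.0371 for the less abundant *Clec7a* row. In that fit 1.14% of all genes were called lower. *Lyz2* illustrates the overlap. It ran from 40.0 through a median of 82.9 to 125 CPM in amyloid WT mice and from 24.9 through 44.4 to 65.1 CPM in amyloid Hom mice, and 8 WT mice lay above every Hom mouse. *Cd52* ran from 4.87 through 10.99 to 18.1 CPM in WT and from 3.27 through 5.17 to 9.08 CPM in Hom mice. *Capg* ran from 3.56 through 6.04 to 10.8 CPM in WT and from 2.06 through 3.35 to 4.73 CPM in Hom mice. The groups overlapped for all of these genes. For all members but *Igf1*, 10 of 10 Hom mice lay below the WT median, and for *Igf1* 9 did. The share of all genes with such counts of mice is not given, here or in the other comparisons. The members varied together from mouse to mouse, so that these counts are not independent of one another. *Igf1* had a log2 fold change of −0.28 (SE 0.11, adjusted p 0.380 by edgeR), with 14.8 to 28.4 CPM in WT and 14.4 to 25.1 CPM in Hom mice.

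In amyloid WT mice the highest and lowest places fell mostly to the same mice, and in amyloid Hom mice the lowest places did. Among amyloid WT mice replicate 32 was highest for 5 of the 8 genes and replicate 12 for 2, and replicate 13 was lowest for 6 and replicate 22 for 2. Among amyloid Hom mice replicate 40 was lowest for 6, while the highest place was shared by replicate 16 for 3, replicates 3 and 34 for 2 each and replicate 19 for 1. The highest WT mice were females and the lowest mice of both groups were males.

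The number of rows called in this comparison depended on the processing. It was 6 with DESeq2, against 1.4% of all genes called lower by that tool, 0 with limma-voom, against 0.0894%, and 3 with the other quasi-likelihood setting of edgeR, against 0.165%. With sex as a covariate 8 of 9 rows were called lower (every row but *Igf1*), against 1.14% of all genes, and 6 rows when replicate 19 was also left out, against 0.915%. Without replicate 19 alone it was 1 row, against 0.0424% of all genes, and without replicate 3 it was 4 rows, against 0.283%. It fell to 0 when WT replicate 5, 12, 32 or 36 or Hom replicate 10, 25, 30, 33, 39 or 40 was left out. It was 3 without WT replicate 9 or Hom replicate 34, 4 without Hom replicate 3, and 6 without WT replicate 13 or 22. Across these 20 fits all 9 rows kept their direction, and between 6 and 204 genes were called in all.

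**Figure D2:**
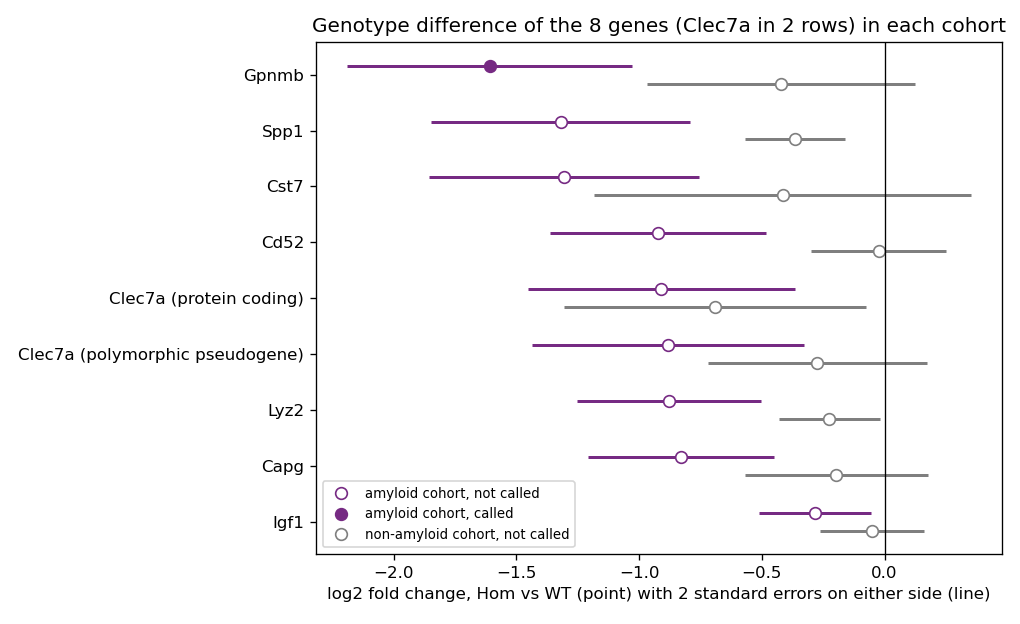
Log2 fold change of Hom over WT mice (points) with 2 standard errors on either side (lines) for the 9 rows of the 8 genes, in the amyloid cohort (purple) and the non-amyloid cohort (grey), 10 mice per group; filled points were called. All 9 points lie below 0 in both cohorts, from −1.61 to −0.28 with amyloid and from −0.69 to −0.02 without, and 1 of them was called.

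Other microglial genes were lower in the same mice, and their counts at an unadjusted p under 0.05 stand beside that over all genes given above. Of 35 tested DAM genes outside the 8 members, 35 were lower in amyloid Hom mice and 30 had an unadjusted p under 0.05, with a median log2 fold change of −0.75 against 0.0014 over all genes tested. By edgeR 0 of them were called, 18 were called with sex as a covariate, 0 without replicate 19 and 8 without replicate 3. The shares of all genes called lower in these fits were 0.0518%, 1.14%, 0.0424% and 0.283% in turn. Those of lowest p were the integrin *Itgax* (−1.19, SE 0.24), the cathepsin *Ctsz* (−0.75, SE 0.16) and the cholesterol hydroxylase *Ch25h* (−1.16, SE 0.25). All 12 homeostatic microglial genes were also lower, 10 with an unadjusted p under 0.05 and with a median of −0.48, led by *Olfml3* (−0.71, SE 0.15), *Tmem119* (−0.66, SE 0.15) and *Selplg* (−0.63, SE 0.15). Of these 12, 0 were called by edgeR, 8 with sex as a covariate, 0 without replicate 19 and 1 without replicate 3. The shares of all genes called lower beside these counts were the same as those given for the DAM genes.

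The genes that work with the members were counted from a list of receptors, adaptors, binding proteins, proteases and transcription factors. Of 25 tested partners, 20 were lower in amyloid Hom mice, 10 with an unadjusted p under 0.05, and the median log2 fold change was −0.18. By edgeR 0 were called, against 0.0518% of all genes called lower, as without replicate 19 or 3, against 0.0424% and 0.283%. With sex as a covariate 5 were called, against 1.14%. The lowest p belonged to *Spi1*, which encodes the myeloid transcription factor PU.1 (−0.76, SE 0.16), to *Itgb5*, an integrin subunit that pairs with the alpha-V chain to bind osteopontin (−0.58, SE 0.13), and to the cathepsin *Ctsl* (−0.38, SE 0.09). *Syk*, the kinase downstream of dectin-1, had −0.40 (SE 0.13). In the cohort comparison 11 of the 25 partners rose in WT mice, where 6.62% of all genes were called higher, among them *Spi1* (1.37), *Card9* (1.20), *Itgb5* (1.19), *Ctsc* (1.14), *Plcg2* (1.11) and *Syk* (0.74). In Hom mice 7 rose, where 5.71% of all genes were called higher. Of the 35 other DAM genes, 31 rose in WT and 24 in Hom mice, and of the 12 homeostatic genes 12 and 9, beside the same shares.

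Markers of other cells were examined beside the genotype difference. Their counts at an unadjusted p under 0.05 are to be read beside the count over all genes given above for this comparison. The share of all genes that were lower is not given here. Among 10 markers of border-associated macrophages 9 were lower in amyloid Hom mice, 4 with an unadjusted p under 0.05, with a median of −0.28. Their summed level ran from 26.7 through 31.5 to 46.9 CPM in amyloid WT and from 23.7 through 27.2 to 35.96 CPM in amyloid Hom mice, with *Stab1* the most abundant at 13.3 and 10.9 CPM on average. Among 7 tested markers of monocytes and neutrophils 7 were lower, 0 with an unadjusted p under 0.05, and their sum had medians of 1.91 and 1.37 CPM, led by *Ccr2*. A further 5 markers of that list did not pass the filter. Among 8 tested markers of T, B and NK cells 6 were lower, 1 with an unadjusted p under 0.05, and the sum of the list had medians of 12.6 and 12.9 CPM. Most of that sum was *Cd4*, which averaged 11.5 of 13.4 CPM in amyloid WT and 13.5 of 15.0 CPM in amyloid Hom mice. The sum therefore says little about the other markers of the list.

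Of 9 astrocyte markers 6 were lower and 2 had an unadjusted p under 0.05, including the filament gene *Gfap* at −0.95 (SE 0.24, adjusted p 0.0830 by edgeR). Their sum had medians of 6529 and 6139 CPM, with *Slc1a2* the most abundant. The median log2 fold change was 0.07 over 12 neuronal, 0.02 over 8 oligodendrocyte, −0.03 over 8 endothelial and mural, 0.24 over 9 leptomeningeal and choroid plexus and 0.10 over 5 erythroid markers. Leptomeningeal and choroid plexus genes summed from 99.5 through 113 to 476 CPM in amyloid WT and from 87.7 through 128 to 772 CPM in amyloid Hom mice, with *Ttr* the most abundant. These sums were highest in WT replicate 32 and Hom replicate 40. No marker of these lists was called by edgeR in this comparison, with all libraries or without replicate 19 or 3. With sex as a covariate 1 was called, *Gfap* at −0.90 (SE 0.17, adjusted p 0.00904), where 1.14% of all genes were called lower, and no marker was at 0 in a whole group. *Thy1* was also lower in amyloid Hom mice, with a log2 fold change of −0.31 (SE 0.11, adjusted p 0.224 by edgeR), while *App* had −0.04 (SE 0.05). The part of these markers and of transgene expression in the lower level of the 8 genes was not tested.

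The third comparison asked for the effect of *Trem2* H157Y without amyloid. All 9 rows had negative log2 fold changes, from −0.69 to −0.02, and 0 of them were called by edgeR, against 0.0282% of all genes called lower. DESeq2 and limma-voom also called 0 rows, against 0.0376% and 0.0235%, and 3 rows and 980 genes had an unadjusted p under 0.05. *Spp1* had the lowest p, with 12.2 through a median of 16.1 to 23.1 CPM in WT and 10.3 through 12.8 to 15.2 CPM in Hom mice. All 10 Hom mice lay below the WT median and 4 below every WT mouse, and the log2 fold change was −0.37 (SE 0.10, p 0.00150, adjusted p 0.770). *Gpnmb* had −0.42 (SE 0.27) and *Cd52* −0.02 (SE 0.14). For *Cd52* the interval of 2 SE ran from −0.30 to 0.25. Beside these, all 7 tested monocyte and neutrophil markers were lower in Hom mice, 4 with an unadjusted p under 0.05 and with a median of −1.29. Without WT replicate 24, 4 of the 7 were lower, 0 with an unadjusted p under 0.05, and the median was −0.04. In that fit 8 of the 9 member rows were lower, 2 with an unadjusted p under 0.05 and 0 called by edgeR, against 7 of all genes called lower, *Spp1* had −0.36 (SE 0.11, adjusted p 0.916) and *Cd52* had 0.04 (SE 0.14).

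Whether the genotype difference differed between the cohorts was tested over all 40 libraries. The interaction was negative for all 9 rows, from −1.18 (SE 0.41) for *Gpnmb* to −0.22 (SE 0.44) for the less abundant *Clec7a* row. None was called by edgeR, where 0% of all genes were called lower, nor by DESeq2, against 0.201%, or limma-voom, against 0%, while 5 rows and 2189 of all genes had an unadjusted p under 0.05. Without replicate 19, 3 or 24 the count of rows was also 0 by edgeR, with 0 to 7 genes called in all. The lowest p belonged to *Cd52* (−0.89, SE 0.27, adjusted p 0.186), followed by *Spp1* (−0.95, SE 0.29, adjusted p 0.201) and *Lyz2* (−0.65, SE 0.22, adjusted p 0.297). A difference between the cohorts in the genotype difference was therefore not shown.

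Females and males were compared within each cohort, with genotype in the model. In amyloid cortex all 9 rows were higher in females, from *Gpnmb* at a log2 fold change of 0.86 (SE 0.23) to *Igf1* at 0.30 (SE 0.10). None was called by edgeR, against 0.202% of all genes called higher, while DESeq2 called 6, against 1.17%, and limma-voom 1, against 0.489%, and 8 rows and 1684 genes had an unadjusted p under 0.05. *Lyz2* had the lowest p (log2 fold change 0.60, SE 0.14, adjusted p 0.0703 by edgeR, 0.00569 to 0.0984 over the other settings). Among amyloid WT mice it ran from 76.3 to 125 CPM in females and from 40.0 to 92.8 CPM in males, and among amyloid Hom mice from 44.3 to 65.1 CPM in females and from 24.9 to 47.6 CPM in males. The sexes overlapped in both genotypes, with 3 of 5 females above every male in each. Leaving out 1 library gave 1 row without WT replicate 8, Hom replicate 33 or Hom replicate 39 (62, 89 and 74 of all genes called in turn), 2 without WT replicate 26 (116 genes) and 3 without WT replicate 36 (90 genes), and 0 in the other 15 fits, against 51 genes with all libraries. Beside these values, 3 of 35 other DAM genes, 2 of 12 homeostatic microglial genes and 1 of 9 astrocyte markers were called higher in females, and the median log2 fold change was 0.24 over 10 border-associated macrophage, 0.16 over 8 T, B and NK cell and −0.58 over 5 erythroid markers. *Thy1* had 0.27 (SE 0.09, adjusted p 0.275 by edgeR). Their part in the sex difference was not tested.

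In non-amyloid cortex 0 of 9 rows were called by edgeR, DESeq2 or limma-voom, against 0.0518%, 0.115% and 0.0612% of all genes called higher in turn. There 7 rows were higher in females, and 1 row and 1400 genes had an unadjusted p under 0.05. The row was *Spp1* at 0.21 (SE 0.09, adjusted p 0.713). Whether sex differences differed between the cohorts was not tested.

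The genotype difference was then examined within each sex of the amyloid cohort, with 5 mice per group. In females *Gpnmb* fell by 1.75 on the log2 scale (SE 0.32, adjusted p 0.0358 by edgeR), from 11.5 to 45.6 CPM in WT to 6.65 to 10.3 CPM in Hom mice without overlap. *Cst7*, *Lyz2*, *Cd52* and both *Clec7a* rows also had no overlap between WT and Hom females, while *Spp1*, *Capg* and *Igf1* overlapped. The share of all genes without such overlap is not given here. In females 1 of 9 rows, *Gpnmb*, was called lower against 0.169% of all genes. The call was lost without replicate 19 (adjusted p 0.124), where 0.00943% of all genes were called lower, and without replicate 3 *Gpnmb*, *Lyz2* and *Cd52* were called (adjusted p from 0.0389 to 0.0451), where 0.664% of all genes were. In males *Gpnmb* had −1.35 (SE 0.32, adjusted p 0.408 by edgeR) and 0 of 9 rows were called, against 0% of all genes, with 9 rows and 738 genes at an unadjusted p under 0.05, and without replicate 19 or 3 the calls were 0 rows and 2 and 0 of all genes lower. The other tools were not run on this contrast. The interaction of genotype and sex was called for 0 rows by edgeR, DESeq2 and limma-voom, against 0% of all genes in either direction by each, and 0 rows and 1124 genes had an unadjusted p under 0.05. It was also called for 0 rows in each of 20 fits that left out 1 library, with at most 1 gene called in all. Its largest values were −0.60 (SE 0.48) for *Spp1* and −0.41 (SE 0.45) for *Gpnmb*, so that a difference between the sexes was not detectable here.

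Correlations between the members from mouse to mouse were examined within each group. Pearson's r of log2 CPM was computed for the 28 pairs of members in each group of 10 mice, with permutation p-values adjusted over the 28 pairs. In amyloid WT mice 24 pairs had an adjusted p under 0.05 (19 by Spearman's rho), with a median r of 0.80, which 2.48% of all pairs of tested genes reached in that group. In amyloid Hom mice 13 pairs did (9 by rho), with a median r of 0.67, which 4.91% of all gene pairs reached. In non-amyloid mice 0 pairs did by either measure, with a median r of 0.28 in WT and of −0.0018 in Hom mice, which 28.8% and 50.3% of all gene pairs reached. Without replicate 19 the amyloid Hom count was 17 (7 by rho), and without replicate 3 it was 14 (10 by rho), by exact permutation tests over 9 mice, with median r of 0.74 and 0.71, which 3.28% and 4.4% of all gene pairs reached. Pairs of genes share members and libraries and are not independent. Whether the correlations differed between the cohorts was not tested.

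With all libraries, the pair of *Cst7* and *Lyz2* had the highest r in both amyloid groups. In amyloid WT mice r was 0.982 (permutation p 1e-05, the smallest that the resamples can give, adjusted p 9.3e-05) and rho was 0.988 (permutation p 1e-05, adjusted p 0.00028), and r was 0.957 without the 2 mice farthest from the median of *Cst7*. In amyloid Hom mice r was 0.945 (permutation p 4e-05, adjusted p 0.000747) and rho was 0.939 (permutation p 0.00024, adjusted p 0.00327), and r was 0.906 without the 2 farthest mice. Without replicate 19 the highest r in Hom mice was 0.979, for *Clec7a* and *Cd52*, beside 0.977 for *Cst7* and *Lyz2*. With all libraries, *Cd52* had an adjusted p under 0.05 with both *Cst7* and *Lyz2* in both groups.

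*Gpnmb* and *Spp1*, the members with the largest genotype differences beside *Cst7*, were close in amyloid WT mice, with r of 0.920 (permutation p 0.00021, adjusted p 0.00084) and rho of 0.855 (permutation p 0.00264, adjusted p 0.00653), and r of 0.831 without the 2 farthest mice. In amyloid Hom mice r was 0.354 (permutation p 0.3125, adjusted p 0.324) and rho was 0.297 (permutation p 0.406, adjusted p 0.421), and r was 0.597 without the 2 farthest mice. Without replicate 19 the r in Hom mice was 0.501 (exact permutation p 0.170, adjusted p 0.183) and rho was 0.417 (exact permutation p 0.270, adjusted p 0.280), and r was 0.864 without the 2 farthest of those 9 mice. Without replicate 3 the r was 0.356 (exact permutation p 0.340, adjusted p 0.353) and rho was 0.317 (exact permutation p 0.410, adjusted p 0.425), and r was 0.599 without the 2 farthest. *Spp1* had 6 of its 7 pairs past the threshold in WT and 0 of 7 in Hom mice, and 0 of 7 without replicate 19, where r ran from 0.486 to 0.594, or without replicate 3, where it ran from 0.337 to 0.642. Whether the correlations differed between the genotypes was not tested. *Igf1* was the loosest member in WT mice, with 4 of 7 pairs, and its pair with *Cd52* rested on 2 mice, since r went from 0.656 (permutation p 0.0398, adjusted p 0.0465) to 0.0521 without the 2 farthest, with rho of 0.394 (permutation p 0.266, adjusted p 0.298).

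Both sexes were in each group, and groups of 5 were too small for a correlation within a sex. When the mean of each group of genotype and sex was taken off over the 20 amyloid libraries, the mean r of a member with the other members ran from 0.361 for *Igf1* to 0.723 for *Cd52*. By the same measure, the genes most like the members included *Aldh1l2*, *Ctss*, *Fam46c*, *Ctsz*, *Itgb2*, *Ly86*, *Ctsh*, *AF251705* and *Cd68*, with mean r from 0.747 down to 0.716, given as a description. They include the lysosomal proteases cathepsin S, Z and H. *Ctss* averaged 299.9 CPM in amyloid WT and 183 CPM in amyloid Hom mice.

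**Figure D3:**
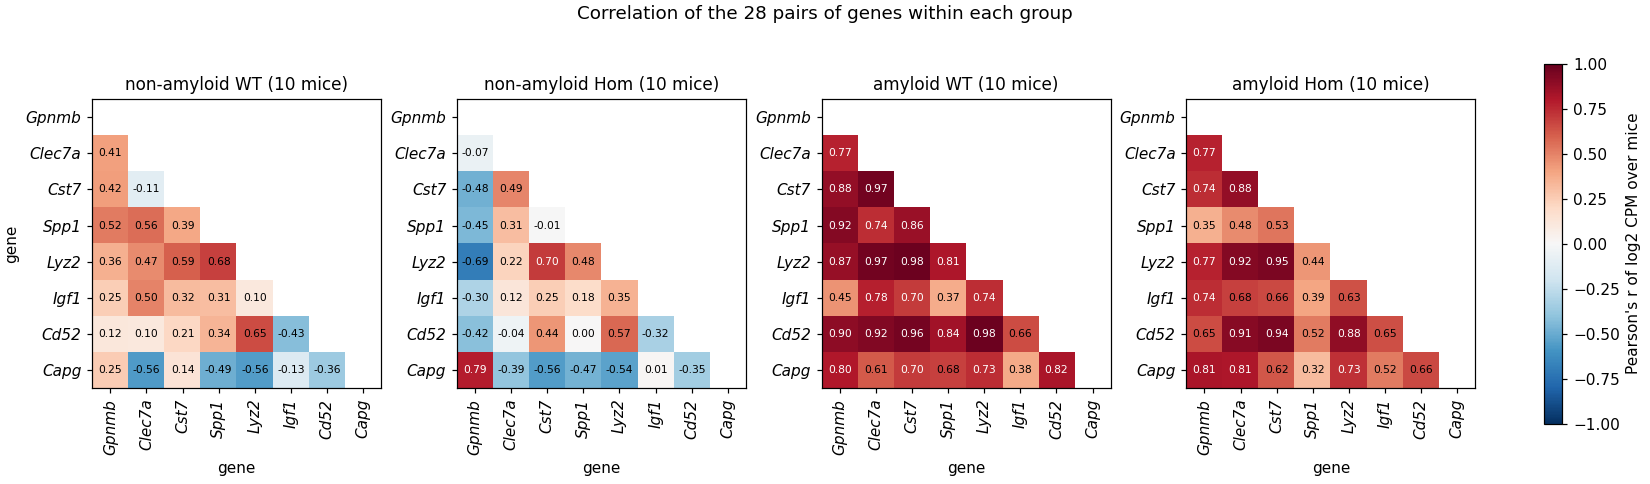
Pearson's r of log2 CPM between the 28 pairs of the 8 genes within each group of 10 mice, as colour and number. Cells run from 0.37 to 0.98 in amyloid WT and from 0.32 to 0.95 in amyloid Hom mice, and from −0.56 to 0.68 and −0.69 to 0.79 in the non-amyloid groups.

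The members lie on 5 chromosomes in the mm10 build. *Gpnmb* (ENSMUSG00000029816, chr6:49036518-49058182), *Capg* (ENSMUSG00000056737, chr6:72544391-72562983) and *Clec7a* share chromosome 6. *Clec7a* has a row annotated as a polymorphic pseudogene (ENSMUSG00000079293, chr6:129461591-129472777) and a protein-coding row (ENSMUSG00000102040, chr6:129463041-129472685). The second lies inside the first, and its counts had a median of 34.1% of the first in amyloid WT and 32.7% in amyloid Hom mice, so that how reads were split between them is uncertain. *Igf1* (ENSMUSG00000020053, chr10:87858265-87937042) and *Lyz2* (ENSMUSG00000069516, chr10:117277334-117282274) share chromosome 10, *Cst7* (ENSMUSG00000068129) is at chr2:150570415-150578944, *Cd52* (ENSMUSG00000000682) at chr4:134082448-134095082 and *Spp1* (ENSMUSG00000029304) at chr5:104435118-104441050.

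Some members share sequence with other genes. *Lyz1*, the neighbouring lysozyme of intestinal Paneth cells, holds 15.4% of the 50-base windows of *Lyz2*. Its counts were a median of 0.940% of those of *Lyz2* in amyloid WT and 1.05% in amyloid Hom mice, and its log2 fold change between them was −0.53 (SE 0.33, adjusted p 0.617 by edgeR). *Spp1* shares 309 of its 1648 exonic bases with *Gm42793* on the same strand, and 172 of the 1187 exonic bases of *Cd52* lie under *Crybg2* on the opposite strand, which had a median of 1.57 CPM. The strand setting of the counting is not given in the sources used here, so counts on those bases are uncertain.

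The promoters of the members were searched for 4 short motifs on both strands, in the 250 bases before each start. Sequences came from RefSeq, build GRCm38.p6, with 9 entries for 7 of the 8 members. The motifs, chosen after the sequences had been seen, were AGGAAGT of PU.1 and other ETS factors, TGANTCA of AP-1, the E-box CACGTG and the M-box TCATGTG, which do not contain one another. Because of that choice, nothing is read from how many members held one. AGGAAGT was in 1 entry each of *Cst7* (63 bases before the start), *Lyz2* (100 bases) and *Spp1* (112 bases), TGANTCA was in *Igf1* (37 bases before the start), and CACGTG and TCATGTG were in 0 of the 9 entries. How common each string is in any promoter is given for scale alone, as AGGAAGT was in 7.69%, TGANTCA in 6.75%, CACGTG in 6.02% and TCATGTG in 3.25% of 32851 promoters. A match is a description of letters and not of a bound factor. The promoters of the 3 members with the largest genotype differences are shown 5′ to 3′ on the plus strand, with AGGAAGT in capitals, for *Gpnmb* (chr6:49036268-49036517, none of the 4 motifs), *Cst7* (chr2:150570165-150570414) and the first entry of *Spp1* (chr5:104434861-104435110).
Gpnmb: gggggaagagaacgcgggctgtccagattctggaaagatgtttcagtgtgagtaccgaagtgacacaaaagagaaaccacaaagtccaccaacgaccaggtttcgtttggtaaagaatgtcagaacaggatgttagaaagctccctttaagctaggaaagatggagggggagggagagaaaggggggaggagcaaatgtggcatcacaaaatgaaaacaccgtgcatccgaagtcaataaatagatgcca
Cst7: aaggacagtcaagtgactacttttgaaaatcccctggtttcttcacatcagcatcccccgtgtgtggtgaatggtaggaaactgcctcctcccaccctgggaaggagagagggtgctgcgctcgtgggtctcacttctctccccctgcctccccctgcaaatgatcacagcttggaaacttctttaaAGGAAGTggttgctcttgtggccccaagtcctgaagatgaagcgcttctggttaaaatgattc
Spp1: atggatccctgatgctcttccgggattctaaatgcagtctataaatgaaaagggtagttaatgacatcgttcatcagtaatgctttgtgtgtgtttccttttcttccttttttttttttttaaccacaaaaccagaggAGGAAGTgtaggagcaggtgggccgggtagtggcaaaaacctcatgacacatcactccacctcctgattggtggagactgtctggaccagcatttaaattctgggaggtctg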

How the data were processed

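The authors deposited raw counts of reads per gene, whole numbers not normalized, for 43346 genes in 40 libraries. The submitters' processing notes name STAR 2.5.2b, featureCounts 1.5.1, edgeR and mm10, while the paper's methods name MAP-RSeq 2.1.1 with TopHat 2.1.0, Bowtie 1.1.2, RSeQC 2.6.2, featureCounts 1.4.6-p5 and mm10. The strand setting and the gene annotation are not given in the sources used here. Libraries were made with the TruSeq RNA Sample Prep Kit. Groups came from the labels, and ages from the paper's text. The paper's methods left out an amyloid Hom female for its share of counted reads and its strand check. The labels do not name it, and all 10 were kept here. Replicate 19 is a female of that group and had the lowest total and the highest share of opposite-strand counts. Whether it was the one left out is not given in the sources used here.

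A gene was tested if 4 or more of the 40 libraries held 10 or more counts of it, with edgeR 4.0.16 in R 4.3.3 (TMM, glmQLFit at the package default, glmQLFTest). Genotype was tested within each cohort of 20 libraries, and cohort differences and the interaction over all 40. Adjusted p-values followed Benjamini and Hochberg over all genes tested, with thresholds of 0.05 for the adjusted p and 0.25 for the size of the log2 fold change. The quasi-likelihood setting (legacy, package default) had not been written in the design; 2 outcomes for the amyloid cohort, 1 row with the default and 3 rows without it, had been seen before the default was kept. Standard errors were the log2 fold change over the root of F. CPM per kb used the deposited gene lengths. Correlations used log2 CPM with a prior count of 2 and two-sided permutation tests with 100000 resamples, or exact ones over every order of the mice where a library was left out of a group. Alternatives were DESeq2 1.42.0, limma 3.58.1 (voom with quality weights), other normalizations and filters, sex as a covariate, one fit of all libraries, no fold threshold and each library left out. The fits without amyloid Hom replicate 3 over all 40 libraries, its combination with sex, those without non-amyloid WT replicate 24 over all 40 libraries and for the marker lists, and the other quasi-likelihood setting were chosen after seeing the data. The correlations without amyloid Hom replicate 3 were also chosen then. Sequence searches, permutations and figures used Python 3.11.15, SciPy 1.17.1, NumPy 2.4.6, matplotlib 3.10.9 and pandas 2.3.3.

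Opposite-strand coverage meant at least 50% of exonic bases under a gene with a median CPM at least 10 times higher. Named genes were the 8 members, genes of the lists that were called or had the lowest p (for other cell types the most abundant), the label checks, the 10 genes most like the members, and genes sharing sequence with a member, although some label checks and 1 of those 10 genes are not reported here. *Syk* and the partners named in the cohort comparison were chosen after their values were seen. Members and lists were chosen with earlier results of these data known. To look for libraries deposited more than once, 180 pairs within groups were compared by chi-square against counting noise alone, and the lowest value per degree of freedom was 13.7.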

Additional observations from a re-analysis of the deposited data

Results flagged for a closer look

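Within each group, the highest and lowest mouse was compared with its nearest neighbour for 48 groups of values, and 4 stood far from the others. Chance gives about 1 in 20 for independent, normally distributed values, which the overlapping *Clec7a* rows and sums near 0 need not be. Of the 4, 1 concerned a member. *Clec7a* (polymorphic pseudogene row) was at 0.0641 CPM in non-amyloid Hom replicate 23, the lowest of 10 mice, against 0.362 in the next lowest. The share of counts on genes covered by a gene of the opposite strand was 0.617% in amyloid Hom replicate 19, against 0.0176% in the next of 10 mice. That replicate 19 stood apart in strand was known beforehand, so its flag cannot be set against the chance rate. The summed Y-linked genes were at 7.56 CPM in amyloid Hom replicate 3, against 0.489 CPM in the next of 5 females, and at 0.459 CPM in amyloid WT replicate 26, against 0.102 CPM in the next of 5 females. The causes were not tested.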

How the results depend on the processing

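In the amyloid cohort, the count of rows lower in Hom mice was 1 as reported. It was 2 with upper quartile normalization (22 of all genes called, against 16 as reported), 4 with filterByExpr (66 genes), 6 with DESeq2 (303), 0 with limma-voom (25), 3 with legacy set to FALSE (41), 8 with sex as a covariate (251), 6 with sex and without replicate 19 (200), 8 with sex and without replicate 3 (215), and 8 in one fit of all 40 libraries (612). It was 0 to 6 with each library left out (6 to 204 genes). For females against males in the amyloid cohort, 0 rows (51 genes) became 6 with DESeq2 (257 genes), 1 with limma-voom (113) and 0 to 3 with each library left out (19 to 116). Among amyloid females, 1 row lower in Hom mice became 0 without replicate 19 and 3 without replicate 3. Counts of called rows in the other comparisons, and of correlated pairs by the same coefficient, were within 1.5 times the reported ones under the alternatives run for them. The causes were not tested. Leaving out a library also gives fewer samples, and the counts with a library left out both rose and fell.

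Values of single rows under the alternatives were tallied. Of the fits that left out 1 library, the tally held all 20 for genotype in the amyloid cohort. It held 3 for each comparison over all 40 libraries, 1 each for sex and genotype by sex with amyloid, and none for the non-amyloid cohort. Of the 881 values tallied, 806 kept direction and side of the threshold, 61 came to pass it and 11 ceased to. The 3 that changed sign were interactions of genotype and sex near 0, namely *Capg* from -0.02 to 0.0035 with upper quartile normalization and *Lyz2* from -0.04 to 0.053 with limma-voom and to 0.018 without replicate 19. Beside these, *Cd52* in non-amyloid Hom against WT mice went from −0.02 to 0.04 without WT replicate 24. The legacy setting was not part of the written design, and its outcomes were known when the default was kept. No paired analysis was possible, because the sample labels used here name no litter or pair, although the paper describes its cohorts as littermates. Low counts limit *Cst7* and *Clec7a* in non-amyloid mice.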
